A study of Mus musculus with 8 samples.

Results

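The genes described here are 44 genes of cell division, namely the cyclins and cyclin-dependent kinases (CDKs), the mitotic kinases, the kinetochore, and the spindle with the machinery of chromosome separation. They were taken by symbol from a table of 18257 genes measured in mouse morulae, and all 44 were found. All 44 also passed the filter on low counts, among 12936 genes tested. The A485 group consisted of wild-type embryos cultured in KSOM medium with 2 µM A485, a compound that blocks the histone acetyltransferases p300 and CBP. The control group consisted of wild-type embryos cultured in the same medium with 0.1% DMSO. Culture in both groups began at the 4-cell stage, and the samples are labelled as morulae, although the culture protocol runs on to the blastocyst. Each group had 4 libraries of polyadenylated RNA, each made from a pool of 3 embryos, so a value is an average over embryos and over the cells in them. The sources used here give neither the mouse strain nor the hour of collection. Values were scaled without spike-in RNA, so every difference is relative to the other genes of a library. In such pools, fewer dividing cells and less RNA per cell cannot be told apart.

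Cell division is driven by CDKs, which are active only when bound to a cyclin. D-type and E-type cyclins act before and at the onset of DNA replication, cyclin A during replication and entry into mitosis, and cyclin B in mitosis itself. Mitotic genes are transcribed mostly late in the cycle, through promoter elements known as the CHR (cell cycle genes homology region) and the CCAAT box, bound by the MuvB complex with B-MYB or FOXM1 and by NF-Y. Cleavage divisions of the early embryo start from messages stored in the egg, and later ones rely on transcription by the embryo.

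Library totals ran between 23641781 and 25677701 estimated counts. All 10 morula markers examined were detected in both groups, and 7 of them were lower in A485, 2 were higher and Cdh1 did not pass. Summed over the list, those markers came to between 1390 and 3084 TPM in A485 libraries, against 1467 to 1727 TPM in control libraries. Most of the A485 sum came from Krt8 and Krt18, the 2 that rose, at means of 892.5 and 1084 TPM (216.5 and 395.5 TPM in control). Of the 7 that fell, Pou5f1 averaged 288 TPM in A485 against 681 TPM in control. Nanog averaged 19.35 against 143 TPM, and Cdx2 1.125 against 24.3 TPM. Markers of oocytes, cumulus cells and fibroblasts were low. The 12 oocyte markers summed to 11.01 to 26.2 TPM in A485 libraries and 8.43 to 13.2 TPM in control libraries, with Mos and Nobox at 0 in all control libraries. The 10 markers of cumulus and granulosa cells summed to 18.7 to 34.4 TPM in A485 libraries, against 12.6 to 21.3 TPM in control libraries, almost all of it from Amhr2, with Has2, Cyp19a1 and Fshr at 0 counts in control libraries and at 1 to 3 counts over the A485 group. The 8 fibroblast markers summed to at most 1.03 TPM in A485 libraries and 0.93 TPM in control libraries. Figla, Mos and Inha were higher in A485 at under 2 TPM on average, and Postn of the fibroblast list was lower. Zp1, Zp2, Nobox, Tnfaip6 and Ptgs2 did not pass the filter on low counts and were not tested. Each had all A485 libraries above all control libraries, with Nobox at 267 counts over the A485 group. Of the 7 blood markers Hba-a1, Cd68 and Cd74 were higher in A485, and the list summed to 477 to 1532 TPM in A485 libraries against 99.6 to 129.5 TPM in control libraries, while Ptprc, Tyrobp and Hbb-bs stayed at or under 0.17 TPM in every library. The part of these markers in the results below was not tested.

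To show the sequence behind the promoter elements named above, the 120 bases before the RefSeq transcription start (GRCm38.p6) are given for 5 genes that were higher in A485 and for Cdk1, which did not pass the test. Each is written from 5′ to 3′ on the strand of the gene, and capitals mark matches to TTTGAA (the CHR), CCAAT, or TTCCCGC and TTGGCGC (E2F sites), on either strand. In Ccnb1 the E2F match overlaps the first CCAAT match. Matches outside these 120 bases are not shown, such as those to TTTGAA in the wider windows of Ccnb2 and Spc25 counted below.
Ccnb1, chr13:100786487-100786606, minus strand: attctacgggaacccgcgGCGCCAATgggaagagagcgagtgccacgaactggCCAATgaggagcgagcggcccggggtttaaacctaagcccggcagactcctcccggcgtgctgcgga
Ccnb2, chr9:70421555-70421674, minus strand: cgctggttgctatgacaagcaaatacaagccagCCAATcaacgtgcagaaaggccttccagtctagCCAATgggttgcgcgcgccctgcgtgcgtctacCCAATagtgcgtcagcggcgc
Spc25, chr2:69206214-69206333, minus strand: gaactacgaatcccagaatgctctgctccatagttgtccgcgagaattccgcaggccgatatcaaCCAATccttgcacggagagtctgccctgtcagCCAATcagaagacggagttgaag
Top2a, chr11:99024190-99024309, minus strand: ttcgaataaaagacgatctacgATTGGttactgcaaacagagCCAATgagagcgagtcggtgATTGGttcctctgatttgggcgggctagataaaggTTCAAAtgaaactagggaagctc
Bub1, chr2:127831860-127831979, minus strand: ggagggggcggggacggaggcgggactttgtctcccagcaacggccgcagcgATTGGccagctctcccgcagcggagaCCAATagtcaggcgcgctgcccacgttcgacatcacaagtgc
Cdk1, chr10:69352913-69353032, minus strand: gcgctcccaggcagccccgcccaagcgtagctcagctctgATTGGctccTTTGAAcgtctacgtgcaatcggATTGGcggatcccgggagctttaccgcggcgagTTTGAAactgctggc

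RefSeq promoter windows, from 250 bases before to 50 bases after the start, were given for 33 of the 44 genes in 37 windows. A CCAAT match lay in 26 of those 37 windows, or 70.3%, against 37.4% of all 32851 windows of the table. TTTGAA matched in 21 windows, or 56.8%, against 17.9% of all windows, and an E2F site in 7, or 18.9%, against 6.81%. Most windows held a CCAAT match whether or not the gene passed the test. A CCAAT match lay in 8 of 10 windows of genes that were higher and in 17 of 25 windows of genes that did not pass, and TTTGAA in 6 of 10 and 14 of 25. Of the 2 windows of genes that fell, that of Aurka held both elements and that of Cdk6 neither. Cdk4 and Nuf2, which rose and whose sequences are not printed, had no match to any of these elements. A match to so short a motif is a description of the sequence and not a binding site.

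Most of the 44 genes did not differ past the threshold between A485 and control morulae. In edgeR's quasi-likelihood test, fitted on all genes with Benjamini-Hochberg adjustment and a threshold of 0.05, 11 of the 44 rose and 4 fell, and 29 did not pass. Across all genes tested 54.7% passed, with 29.7% higher and 25.0% lower in A485, against 34.1% of the 44, with 25.0% higher and 9.09% lower. The genes that rose were Ccnb1, Ccnb2, Ccnd2, Ccne2, Cdk4, Bub1, Nuf2, Spc25, Cenpf, Top2a and Prc1, and those that fell were Ccna2, Ccnd1, Cdk6 and Aurka. Only 3 of the 44 passed with at least a 2-fold difference, Ccnd2 and Ccne2 upward and Cdk6 downward. Of all genes tested, 22.2% passed as higher and 14.3% as lower at that size. Ccnd2 and Cdk6 averaged under 1 TPM in both groups. The median log2 fold change was 0.15 over the 44 genes and 0.09 over all genes tested. The 8 libraries separated by group without overlap for 17 of the 44 genes, or 38.6%, with A485 higher in 10 and lower in 7, against 51.5% of all genes tested, with A485 higher in 26.9% and lower in 24.6%.

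**Figure D1:**
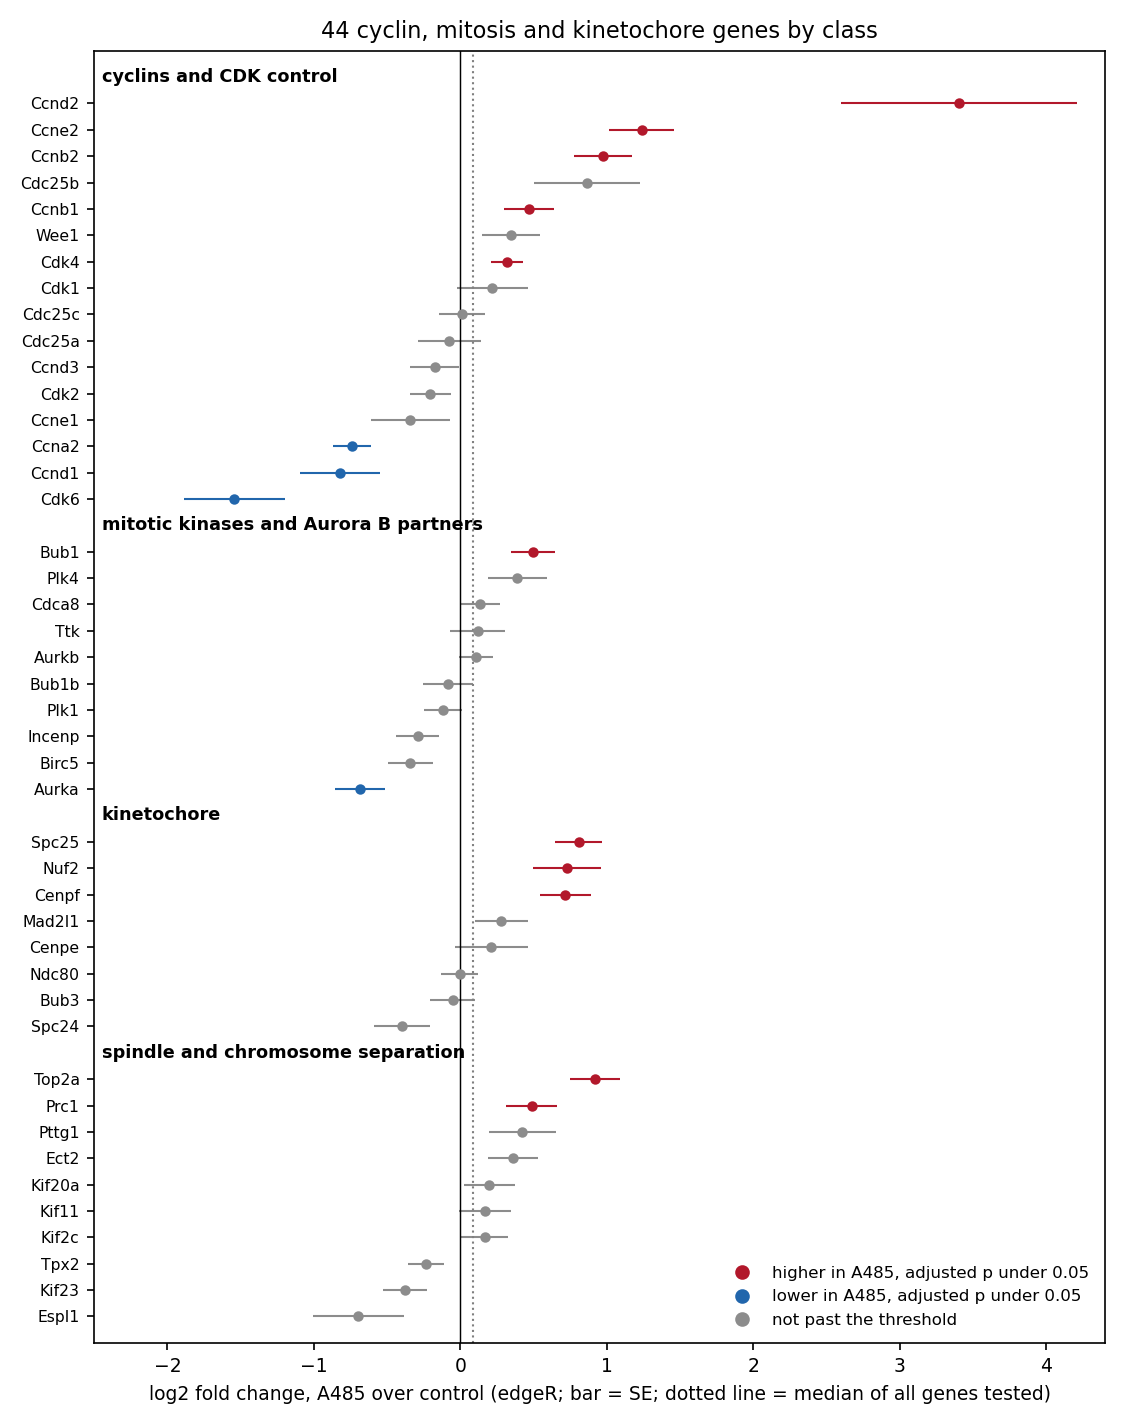
Log2 fold change of A485 over control (horizontal axis, edgeR, bar = SE) for the 44 genes, grouped by class, with genes past an adjusted p of 0.05 in red (higher in A485) or blue (lower) and the rest in grey. Except for Ccnd2 at 3.41, Ccne2 at 1.24 and Cdk6 at -1.54, every gene lies between -1 and 1.

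The counts depended on the scaling of libraries and on single libraries. When libraries were scaled by total counts alone, the median over all genes tested moved to a log2 fold change of 0.37, and 21 of the 44 were higher and 3 lower. Over all genes that scaling gave 4930 higher and 2300 lower, against 3839 higher and 3238 lower with TMM factors. The number that rose was 7 without control replicate 1 and 6 without control replicate 4, and the number that fell was 8 without A485 replicate 1 and 8 without A485 replicate 4. No gene among the 15 changed direction under any alternative, and 9 of the 15, Ccna2, Ccnb2, Ccnd2, Ccne2, Cdk6, Aurka, Spc25, Cenpf and Top2a, passed in every alternative that tested them. Ccnd2 and Cdk6 were tested in 18 of the 19 alternatives, since a filter at 5 CPM removed them.

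In the class of cyclins and CDK control, 5 of 16 genes rose, 3 fell and 8 did not pass, with a median log2 fold change of 0.11. That is 31.25% higher and 18.75% lower, against 29.7% and 25.0% of all genes tested. The B-type cyclins and cyclin A2, partners of the mitotic kinase CDK1, moved in opposite directions. Ccnb2, encoding cyclin B2 (chromosome 9, 70407689 to 70421554, GRCm38.p6), had 167.5, 154, 192 and 291 CPM in the A485 libraries (CPM are read counts scaled to library size, here with TMM factors for library composition), against 87.8, 104.7, 114.6 and 102.5 CPM in the control libraries. All A485 libraries lay above all control libraries, and the log2 fold change was 0.98 ± 0.20 (SE; adjusted p = 0.0022, edgeR). Ccnb1, encoding cyclin B1 (chromosome 13, 100778739 to 100786486), had 1552, 1284, 1071 and 1452 CPM in A485 libraries, against 1138, 991.5, 1012 and 729 CPM in control libraries. The groups overlapped, since A485 replicate 3 lay below control replicate 1, and the log2 fold change was 0.47 ± 0.17 (SE; adjusted p = 0.039, edgeR). That call did not survive leaving out control replicate 2, 3 or 4, A485 replicate 1, 2 or 4, or A485 replicates 1 and 2 together, nor testing without a filter (adjusted p of 0.060 to 0.13). The reference holds 1 pseudogene named after each of Ccnb1, Ccnb2 and Ccnd3, so reads of these genes may be shared with copies.

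Ccna2, encoding cyclin A2 (chromosome 3, 36564865 to 36573038), had 149, 119, 139.5 and 167 CPM in A485 libraries, against 247, 239, 227.5 and 246 CPM in control libraries. The groups did not overlap, with a log2 fold change of -0.74 ± 0.13 (SE; adjusted p = 0.00082, edgeR), or -0.46 when libraries were scaled by total counts. Its position overlaps that of Exosc9 in the gene table, and whether counting used strand was not stated. The positions of Ccnd1, Ccnd3, Cdk2, Cdk4, Kif20a and Prc1 also overlap other protein-coding genes. Those of Ccnd2, Cdk6, Cdc25a, Cdc25c, Incenp, Kif11, Tpx2, Top2a and Ect2 overlap noncoding genes or pseudogenes. The counts of all these genes carry the same uncertainty. Cdk1, the kinase that these cyclins activate, had 439, 299, 343 and 583 CPM in A485 libraries, against 342.5, 507, 288 and 292 CPM in control libraries. The groups overlapped over most of their range, and the log2 fold change was 0.22 ± 0.24 (SE; adjusted p = 0.47, edgeR). Per length, in the authors' TPM, cyclin B1 was the most abundant of the 8 cyclin messages among the 44 genes in both groups, at 727 ± 49.5 TPM in A485 libraries and 426 ± 77.1 TPM in control libraries (SD, n = 4 each). The TPM values carry no correction for composition, so they run higher in A485 than the CPM values do. Of the summed B-type cyclin message, Ccnb2 made up 14.5% to 24.0% in A485 libraries and 10.9% to 18.1% in control libraries, ranges that overlap.

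**Figure D2:**
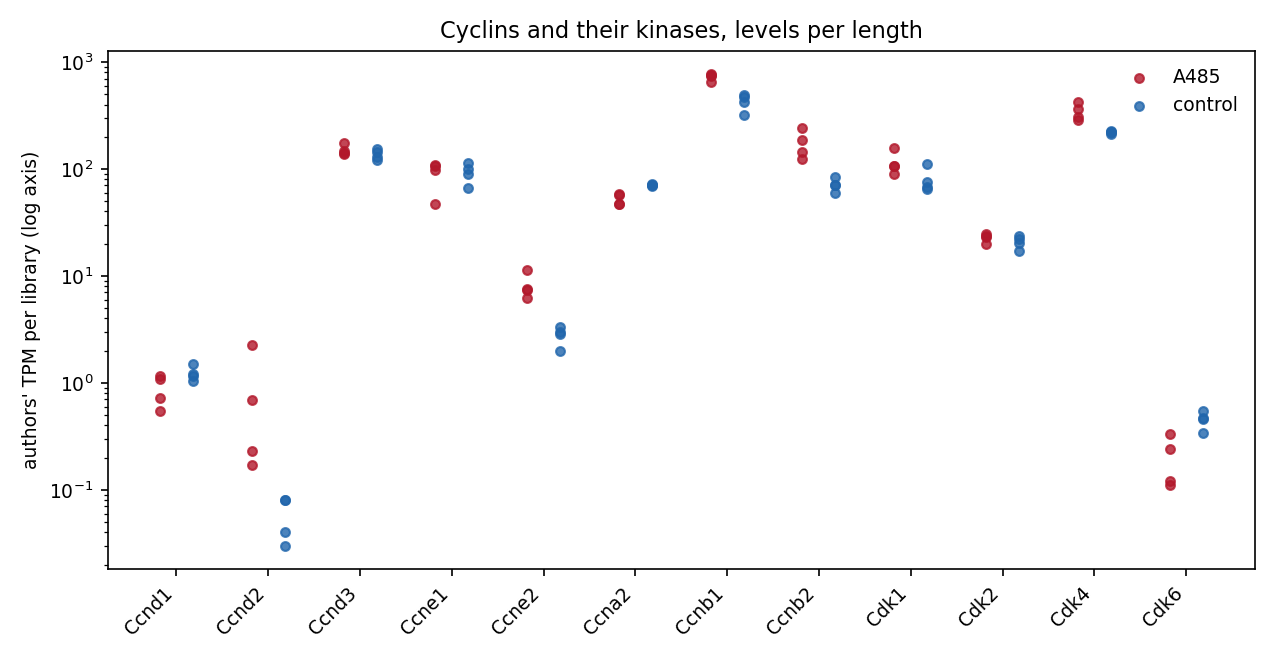
Levels per length (the authors' TPM, log axis) of 8 cyclins and 4 CDKs in each library, A485 in red and control in blue. Ccnd3 and Cdk4 lie more than 10 times above the other D-type cyclins and Cdk6 in both groups, and Ccne1 lies above Ccne2 in every library.

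The E-type cyclins, partners of CDK2 at the start of DNA replication, were represented mainly by Ccne1. Ccne2, encoding cyclin E2 (chromosome 4, 11190433 to 11204779), had 19.7, 14.9, 22.2 and 14.5 CPM in A485 libraries, against 5.46, 9.21, 7.71 and 7.84 CPM in control libraries. It rose with no overlap, with a log2 fold change of 1.24 ± 0.22 (SE; adjusted p = 0.0010, edgeR). Its position overlaps that of Ints8 and of the noncoding gene A630034I12Rik. Ccne1 had 187, 155, 132 and 73.4 CPM in A485 libraries, against 191, 218.5, 159 and 125.5 CPM in control libraries, and its log2 fold change was -0.34 ± 0.27 (SE; adjusted p = 0.30, edgeR). A485 replicate 4 was the lowest library for Ccne1, below every control library. Cyclin E2 was the minor form in both groups, at 6.33% to 11.9% of the summed E-type TPM in A485 libraries and 1.97% to 4.13% in control libraries, without overlap. The sum of both E-type cyclins was 98.2 ± 30.3 TPM in A485 libraries and 94.6 ± 20.01 TPM in control libraries (SD, n = 4 each). Cdk2 itself had 41.5, 39.4, 38.3 and 46.6 CPM in A485 libraries, against 54.8, 48.2, 48.0 and 40.2 CPM in control libraries, a log2 fold change of -0.20 ± 0.14 (SE; adjusted p = 0.24, edgeR), with the sign reversed under total-count scaling.

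The D-type cyclins, which activate CDK4 and CDK6 in early G1, were nearly all Ccnd3, at 97.6% to 99.6% of the summed D-type TPM in A485 libraries and 99.0% to 99.1% in control libraries. Ccnd3, encoding cyclin D3, had 308, 194, 187 and 230.5 CPM in A485 libraries, against 279, 251, 275 and 234 CPM in control libraries, and did not pass (log2 fold change of -0.17 ± 0.17, SE; adjusted p = 0.40, edgeR). Without A485 replicate 1, the highest of the 8 libraries, it passed as lower (adjusted p = 0.032), and under total-count scaling its sign was reversed. The remaining D-type cyclins were scarce and moved in opposite directions. Ccnd1 (chromosome 7, 144929931 to 144939831) had 1.97, 2.09, 3.20 and 3.47 CPM in A485 libraries, against 4.8, 4.65, 5.50 and 4.08 CPM in control libraries. It fell with no overlap, with a log2 fold change of -0.82 ± 0.27 (SE; adjusted p = 0.026, edgeR), a call that was lost without A485 replicate 2, control replicate 1 or control replicate 3 (adjusted p of 0.052 to 0.064), with A485 replicates 1 and 2 both left out (0.13) and with total-count scaling (adjusted p = 0.15). Ccnd2 (chromosome 6, 127125162 to 127152188) had 31, 89, 288 and 24 counts in A485 libraries, against 12, 11, 4 and 5 counts in control libraries. It rose by a log2 fold change of 3.41 ± 0.80 (SE; adjusted p = 0.0050, edgeR), with most of the reads in A485 replicate 3, without which the log2 fold change was 2.33 (adjusted p = 0.011).

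The partner kinases of the D-type cyclins were also unequal. Cdk4 (chromosome 10, 127063535 to 127067288) had 347, 356, 393 and 332 CPM in A485 libraries, against 280.5, 297, 278 and 291 CPM in control libraries, a log2 fold change of 0.32 ± 0.11 (SE; adjusted p = 0.030, edgeR). The groups did not overlap, but the call was lost without A485 replicate 2 or 3 or control replicate 1, 3 or 4 (adjusted p of 0.054 to 0.13), without A485 replicates 3 and 4 (0.056), with no filter (0.11) and in the fit with a replicate block (0.077). Cdk6 (chromosome 5, 3341004 to 3531008) had 1.48, 3.04, 2.11 and 1.15 CPM in A485 libraries, against 5.90, 6.86, 3.96 and 5.98 CPM in control libraries. It fell without overlap, with a log2 fold change of -1.54 ± 0.34 (SE; adjusted p = 0.0034, edgeR), and made up at most 0.247% of the summed Cdk4 and Cdk6 TPM in any library.

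Among the genes that restrain or release CDK1, Wee1 and the 3 CDC25 genes did not pass. Wee1, the kinase that phosphorylates and inhibits CDK1, had 6.32, 8.93, 7.69 and 8.5 CPM in A485 libraries, against 6.87, 5.96, 6.25 and 5.66 CPM in control libraries (log2 fold change of 0.35 ± 0.20, SE; adjusted p = 0.16, edgeR). Only A485 replicate 1 fell within the control range. Pkmyt1, which is not among the 44 and was chosen after its values were seen, encodes MYT1, the other kinase that inhibits CDK1. It had 25.2, 17.7, 22.1 and 27.4 CPM in A485 libraries, against 18.1, 14.6, 17.3 and 14.5 CPM in control libraries. The groups overlapped, and it rose by 0.52 ± 0.18 on the log2 scale (SE; adjusted p = 0.030, edgeR). That call was lost without A485 replicate 1 or 4 or control replicate 2, 3 or 4 (adjusted p of 0.061 to 0.093), without A485 replicates 3 and 4 (0.11), with no filter (0.063) and with a replicate block (0.051). Of the CDC25 phosphatases, which remove the inhibitory phosphates from CDK1, Cdc25c was the most abundant per length, at 69.2% to 75.5% of their summed TPM in A485 libraries and 71.5% to 77.3% in control libraries. Cdc25a and Cdc25c had log2 fold changes of -0.08 ± 0.21 and 0.01 ± 0.16 (SE; adjusted p = 0.79 and 0.96, edgeR), whose signs depended on the scaling. Cdc25b, at 3.29 to 8.43 CPM in A485 libraries and 1.85 to 3.80 CPM in control libraries, had a log2 fold change of 0.87 ± 0.36 (SE; adjusted p = 0.065, edgeR), and passed in 7 of the 18 alternatives that tested it.

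**Figure D3:**
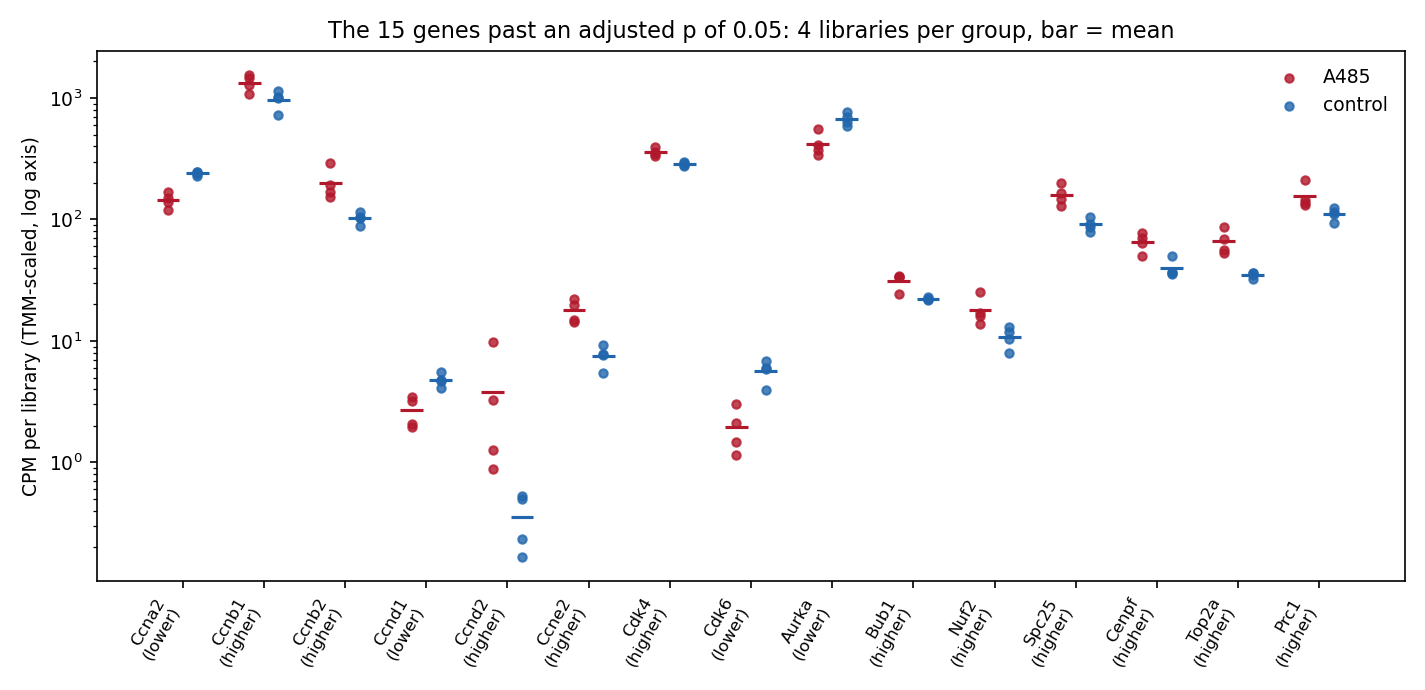
CPM per library (TMM-scaled, log axis) for the 15 genes past an adjusted p of 0.05, with A485 libraries in red left of control libraries in blue and a bar at each mean. Ccnb1 and Cenpf are the 2 genes whose groups overlap, and Ccnd2 has the widest spread, from 0.887 to 9.80 CPM in A485 libraries.

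Among the mitotic kinases and the partners of Aurora B, 1 of 10 genes rose, 1 fell and 8 did not pass, with a median log2 fold change of 0.01. The shares for all genes tested were 29.7% higher and 25.0% lower. Aurka, encoding Aurora A, the kinase of centrosome maturation and spindle poles (chromosome 2, 172356190 to 172370886), had 410, 373, 338.5 and 560 CPM in A485 libraries, against 640, 768.5, 703 and 593 CPM in control libraries. It fell without overlap, with a log2 fold change of -0.69 ± 0.17 (SE; adjusted p = 0.0066, edgeR), or -0.41 under total-count scaling. Its position overlaps that of Cstf1. Aurkb, encoding Aurora B, the kinase of the chromosomal passenger complex, stayed within a narrow band, with 61.9, 62.0, 58.4 and 65.6 CPM in A485 libraries, against 56.1, 54.0, 61.3 and 58.8 CPM in control libraries (log2 fold change of 0.11 ± 0.12, SE; adjusted p = 0.46, edgeR). Its partners Incenp, Birc5 and Cdca8, which encode INCENP, survivin and borealin, had log2 fold changes of -0.29, -0.34 and 0.14 (adjusted p = 0.12, 0.084 and 0.40, edgeR). For Birc5 the A485 libraries, at 352 to 526 CPM, all lay below the control libraries, at 532.5 to 576 CPM, and it passed as lower without A485 replicate 1 or A485 replicate 4 (both adjusted p = 0.034). Incenp passed as lower without A485 replicate 4 (adjusted p = 0.042).

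Plk1, encoding Polo-like kinase 1, which acts from mitotic entry to cytokinesis, had 150, 137, 139 and 167.5 CPM in A485 libraries, against 155, 192, 152 and 144 CPM in control libraries. The groups overlapped, and the log2 fold change was -0.12 ± 0.13 (SE; adjusted p = 0.47, edgeR), with the sign reversed under total-count scaling. Plk4, the kinase of centriole duplication, had a log2 fold change of 0.39 ± 0.20 (SE; adjusted p = 0.13, edgeR). Of the spindle checkpoint kinases, Bub1 rose (chromosome 2, 127800197 to 127831859). It had 24.3, 33.8, 33.4 and 34.2 CPM in A485 libraries, against 22.2, 21.9, 22.9 and 22.0 CPM in control libraries, with no overlap and a log2 fold change of 0.50 ± 0.15 (SE; adjusted p = 0.018, edgeR). That call was lost, at an adjusted p of 0.050, without control replicate 1 or control replicate 4, and at 0.086 without A485 replicates 3 and 4. Bub1b, encoding BUBR1, and Ttk, encoding MPS1, had log2 fold changes of -0.08 ± 0.17 and 0.12 ± 0.19 (SE; adjusted p = 0.69 and 0.62, edgeR).

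In the kinetochore class 3 of 8 genes rose, none fell and 5 did not pass. The share called was 37.5%, all of it higher. Of all genes tested 54.7% were called and 29.7% were higher. The median log2 fold change was 0.25. The NDC80 complex, which couples kinetochores to microtubules, has 4 subunits, of which 2 rose and 2 did not pass. Spc25 (chromosome 2, 69193895 to 69206213) had 128, 146, 198 and 164 CPM in A485 libraries, against 87.5, 91.5, 106 and 79.0 CPM in control libraries, a log2 fold change of 0.81 ± 0.16 (SE; adjusted p = 0.0018, edgeR). Nuf2 (chromosome 1, 169497934 to 169531464) had 13.9, 16.9, 15.9 and 25.1 CPM in A485 libraries, against 10.4, 11.9, 13.1 and 7.89 CPM in control libraries. Neither gene had overlapping groups, but the call of Nuf2 (log2 fold change of 0.73 ± 0.23, SE; adjusted p = 0.022, edgeR) was lost without A485 replicate 4, control replicate 1 or control replicate 4 (adjusted p of 0.059 to 0.070), without A485 replicates 3 and 4 (0.093) and with a replicate block (0.053). Ndc80 had a log2 fold change of 0.00 ± 0.13 (SE; adjusted p = 0.98, edgeR), with 34.1 to 37.1 CPM in A485 libraries and 31.6 to 39.1 CPM in control libraries. Spc24 had a log2 fold change of -0.40 ± 0.19 (SE; adjusted p = 0.10, edgeR). A485 replicate 1, at 249 CPM, lay within the control range of 210 to 260 CPM, while the other A485 libraries, at 132 to 170 CPM, lay below it, and without that library Spc24 passed as lower (adjusted p = 0.0027). Per length, Spc24 and Spc25 exceeded Ndc80 and Nuf2 in both groups, with 170 and 157 TPM against 20.8 and 9.24 TPM in A485 libraries, and 184 and 71.2 TPM against 16.7 and 4.49 TPM in control libraries.

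Cenpf, encoding a large protein of the outer kinetochore (chromosome 1, 189640606 to 189688107), had 64.4, 76.8, 49.9 and 69.8 CPM in A485 libraries, against 37.1, 49.9, 35.6 and 36.1 CPM in control libraries. It rose by a log2 fold change of 0.72 ± 0.18 (SE; adjusted p = 0.0059, edgeR), and A485 replicate 3 was level with control replicate 2. Cenpe, the kinetochore kinesin, had a log2 fold change of 0.21 ± 0.25 (SE; adjusted p = 0.50, edgeR). MAD2 and BUB3 belong to the checkpoint complex that binds the activator of the anaphase-promoting complex while kinetochores are unattached. Mad2l1 had 111, 93.4, 136 and 166 CPM in A485 libraries, against 113, 109, 108 and 87.2 CPM in control libraries (log2 fold change of 0.28 ± 0.18, SE; adjusted p = 0.22, edgeR). Bub3 had a log2 fold change of -0.05 ± 0.15 (SE; adjusted p = 0.79, edgeR), and its sign depended on the scaling. For both genes the groups overlapped, and A485 replicate 4 was the highest of the 8 libraries.

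In the class of the spindle and of chromosome separation 2 of 10 genes rose, none fell and 8 did not pass, with a median log2 fold change of 0.18. For comparison, 29.7% of all genes tested were higher and 25.0% lower. Top2a, encoding topoisomerase IIα, which untangles sister chromatids (chromosome 11, 98992947 to 99024199), had 56.4, 69.7, 52.5 and 86.1 CPM in A485 libraries, against 32.5, 36.4, 35.0 and 36.0 CPM in control libraries. The control libraries lay within 4 CPM of each other and all A485 libraries lay above them, with a log2 fold change of 0.92 ± 0.17 (SE; adjusted p = 0.0012, edgeR). Prc1, which bundles the microtubules of the central spindle (chromosome 7, 80294445 to 80316259), had 130, 137, 145 and 210 CPM in A485 libraries, against 111, 125, 115 and 93.3 CPM in control libraries. Its log2 fold change was 0.49 ± 0.17 (SE; adjusted p = 0.034, edgeR), and the call was lost without A485 replicate 4 or control replicate 1, 3 or 4 (adjusted p of 0.079 to 0.11), without A485 replicates 3 and 4 (0.14), with no filter (0.061) and in the fit with a replicate block (0.077).

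Pttg1, encoding securin, which holds separase inactive until anaphase, and Espl1, encoding separase, both failed the test. Pttg1 had 211, 285, 357 and 501 CPM in A485 libraries, against 232, 268.5, 236 and 273 CPM in control libraries. The A485 libraries spanned more than the whole control range, and the log2 fold change was 0.42 ± 0.23 (SE; adjusted p = 0.14, edgeR). Pttg1 passed as higher without A485 replicate 1 (adjusted p = 0.018) and under total-count scaling (0.027). Espl1 had 7.14, 5.67, 3.47 and 9.90 CPM in A485 libraries, against 7.71, 10.6, 10.9 and 13.2 CPM in control libraries, a log2 fold change of -0.70 ± 0.31 (SE; adjusted p = 0.080, edgeR). Leaving out A485 replicate 4 gave an adjusted p of 0.021. The mitotic kinesins Kif11, Kif20a and Kif2c had log2 fold changes of 0.17 to 0.20 (adjusted p of 0.36 to 0.45, edgeR). Kif23, a subunit of centralspindlin, had 45.8 to 65.8 CPM in A485 libraries, all below the 68.9 to 77.9 CPM of control libraries, and a log2 fold change of -0.38 ± 0.15 (SE; adjusted p = 0.053, edgeR). It passed in 7 of 19 alternatives, DESeq2 and limma-voom among them. Tpx2, which nucleates spindle microtubules and binds Aurora A, had a log2 fold change of -0.24 ± 0.12 (SE; adjusted p = 0.13, edgeR), with the A485 libraries at 59.3 to 69.6 CPM just below the control libraries at 69.9 to 82.6 CPM. Ect2, which activates RhoA at the cleavage furrow, had a log2 fold change of 0.36 ± 0.17 (SE; adjusted p = 0.097, edgeR), with the A485 libraries all above the control libraries.

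**Figure D4:**
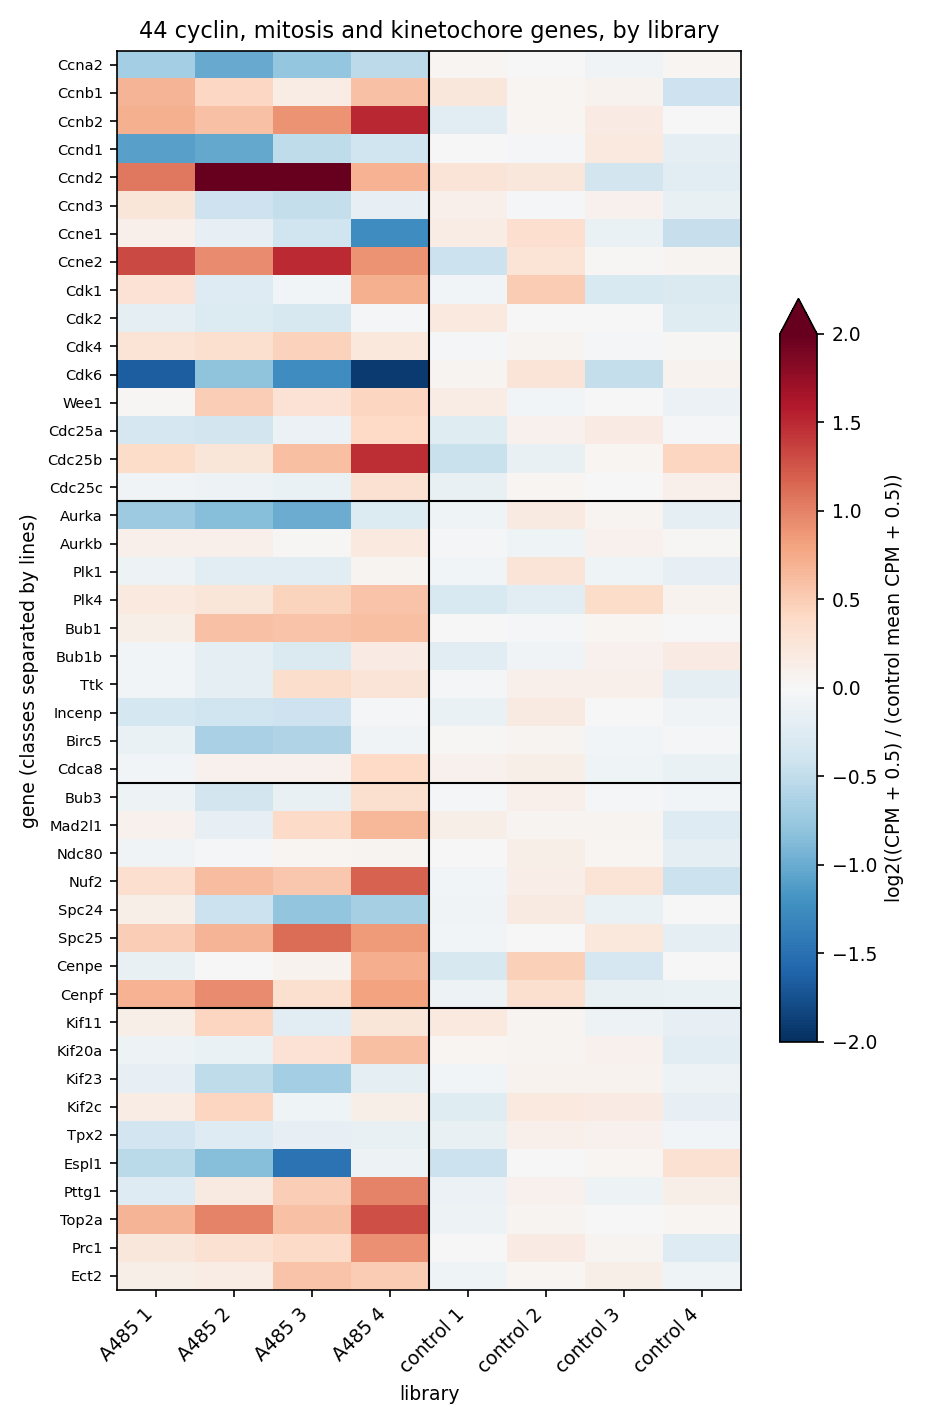
Log2 ratio of CPM (with 0.5 added) in each library to the control mean, for the 44 genes in class order, A485 libraries left of control libraries and red for higher. A485 replicate 4 is the darkest red of the A485 libraries for many mitotic genes, and the control libraries stay close to white.

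Within the A485 group, replicate 4 gave the highest value for 28 of the 44 genes, or 63.6%, against 27.7% of all genes tested. It did so for 9 of the 10 mitotic kinases and Aurora B partners. Within the control group, replicate 2 gave the highest value for 20 of the 44 genes, or 45.5%, against 26.3% of all genes tested, and replicate 4 the lowest for 19, or 43.2%, against 21.4%. The labels name no batch or hour that would separate these libraries. Summed per length, the 44 genes came to 3953, 4397, 4814 and 5331 TPM in A485 libraries, against 3502, 3705, 3708 and 3263 TPM in control libraries, on a scale without correction for composition. The class of mitotic kinases and Aurora B partners summed to 1314 ± 172 TPM in A485 libraries and 1313 ± 73.7 TPM in control libraries (SD, n = 4 each).

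Other genes of the pathway were counted in lists chosen by function, but with earlier results of these data known. The shares called in these lists are therefore descriptions. Of 24 tested genes among the CDK inhibitors, the RB family and the E2F factors, 10 rose and 1 fell, against 29.7% and 25.0% of all genes tested. Cdkn1c, encoding the CDK inhibitor p57, had 40.0, 22.9, 35.3 and 27.3 CPM in A485 libraries, against 1.01, 1.72, 2.79 and 1.16 CPM in control libraries, a log2 fold change of 4.22 ± 0.35 (SE; adjusted p = 1.8e-05, edgeR). E2f5 and E2f6, which encode E2F factors known mainly as repressors, were higher by 2.15 ± 0.23 and 2.33 ± 0.25 on the log2 scale (SE). The gene that fell was Mybl2, encoding B-MYB, an activator of mitotic genes, with 58.7, 44.8, 36.9 and 80.8 CPM in A485 libraries, against 180, 157, 171 and 219 CPM in control libraries (log2 fold change of -1.72 ± 0.23, SE; adjusted p = 0.00022, edgeR). Chosen after its values were seen, Foxm1, encoding the other activator, rose by a log2 fold change of 0.84 ± 0.29 (SE; adjusted p = 0.030, edgeR), a call that was lost without A485 replicate 3 or control replicate 1, 2 or 3 (adjusted p of 0.060 to 0.090), without A485 replicates 3 and 4 (0.19) and with a replicate block (0.059).

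Among 28 tested genes of other mitotic regulators, 14 rose and 8 fell, or 78.6% called, against 54.7% of all genes tested. Since earlier results were known when this list was drawn up, its larger share is a description only. Those with the smallest p were Ensa, Cdc7, Stk10 and Plk3, all higher in A485, with log2 fold changes of 1.93 ± 0.22, 1.08 ± 0.14, 2.06 ± 0.28 and 3.28 ± 0.48 (SE). ENSA is a substrate of the Greatwall kinase and, once phosphorylated, inhibits the phosphatase PP2A-B55 so that CDK1 substrates stay phosphorylated. Chosen after their values were seen, 3 further genes of that module also rose, namely Mastl, which encodes Greatwall, with a log2 fold change of 0.98 ± 0.21, Arpp19 with 0.50 ± 0.12 and the B55 subunit gene Ppp2r2d with 1.28 ± 0.20 (SE). Each had A485 libraries that all lay above the control libraries, as for Mastl with 23.3, 29.4, 42.5 and 43.5 CPM in A485 libraries and 18.1, 18.4, 18.2 and 15.6 CPM in control libraries. Without A485 replicates 3 and 4 the log2 fold change of Mastl was 0.58. Cdc7, a kinase that fires replication origins, rose together with its activator Dbf4, also chosen after its values were seen (log2 fold change of 0.94 ± 0.15, SE; adjusted p = 0.00054, edgeR).

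**Figure D5:**
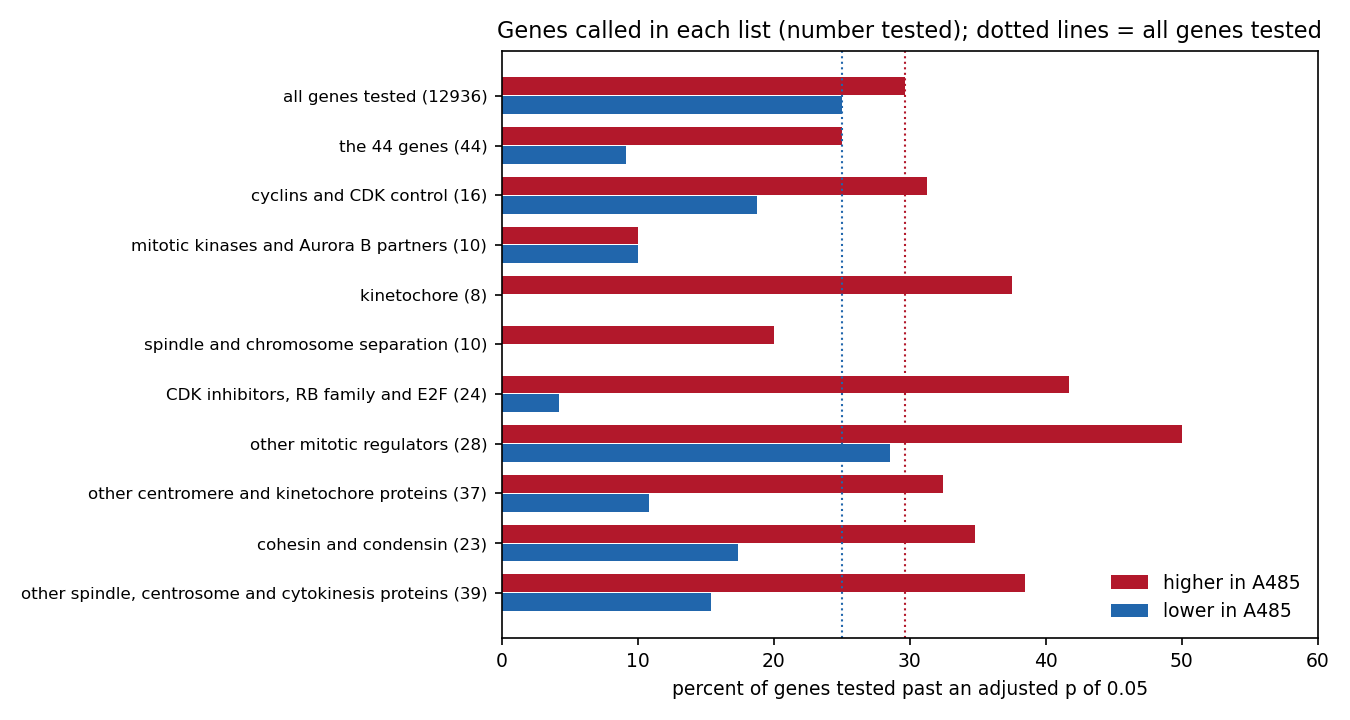
Percent of tested genes past an adjusted p of 0.05 that were higher (red) or lower (blue) in A485, for all genes tested, the 44 genes, their 4 classes and 5 further lists, with the number tested in brackets. The 44 genes have 25.0% higher and 9.09% lower, and each of the 5 further lists has more genes higher than lower.

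In the other centromere and kinetochore proteins 12 of 37 rose and 4 fell, or 43.2% called, against 54.7% of all genes tested. Ska2, a subunit of a complex that tracks microtubule ends, rose by a log2 fold change of 1.18 ± 0.16, and Cenpw, Trip13 and Cenpx fell by 0.85 to 0.91 on the log2 scale. With total-count scaling 18 rose and 3 fell. Among the cohesin and condensin genes 8 of 23 rose and 4 fell, or 52.2% called, near the 54.7% of all genes tested. Pds5a, Mau2 and Stag1 of the cohesin system were higher (log2 fold changes of 0.78 to 1.44). Ncaph2 of condensin II was lower (-0.76 ± 0.11, SE). Stag1 depended on A485 replicates 1 and 2, with a log2 fold change of 0.54 when both were left out. Scaling by total counts gave 13 genes of the list higher and 1 lower. In the remaining spindle, centrosome and cytokinesis genes 15 of 39 rose and 6 fell, or 53.85% called, also near 54.7%. Under total-count scaling 21 rose and 2 fell. Ckap5, encoding a microtubule polymerase, rose by a log2 fold change of 1.75 ± 0.22, Cep55, which acts in abscission, with 1.31 ± 0.25, and Pcnt, encoding pericentrin, with 1.04 ± 0.19, while the augmin subunit gene Haus8 fell with -0.80 ± 0.13 (SE). Chosen after its values were seen, Racgap1, whose protein pairs with that of Kif23 in centralspindlin, fell with a log2 fold change of -0.90 ± 0.19 (SE; adjusted p = 0.0027, edgeR), with 124.5, 94.0, 63.2 and 97.1 CPM in A485 libraries, all below the 193.5, 192, 165 and 157 CPM of control libraries.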

How the data were processed

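Polyadenylated RNA of 8 pools of mouse morulae, 4 of A485 and 4 of control, was analysed from 1 deposited table of 18257 genes. Per the submitters' processing notes, HISAT2 2.2.1, RSEM 1.2.28, DESeq2 1.40.2 and GRCm38.p6 were used. Per the file headers, the authors deposited estimated counts, FPKM, TPM, normalized counts (a scaled signal), and their own log2 fold change with its p-value and q-value. The estimated counts were rounded to whole numbers. They were tested in R 4.3.3 by the quasi-likelihood test of edgeR 4.0.16, after filterByExpr and TMM scaling, with a robust fit and no covariate besides group. P-values were adjusted by Benjamini-Hochberg over every gene tested. The SE of a log2 fold change is its size over the square root of F. CPM uses TMM-scaled library sizes. TPM is used for levels between genes, for shares within families and for sums over lists, which are set side by side for the groups without a test, and FPKM and normalized counts were not used. Alternatives used DESeq2 1.42.0, limma 3.58.1 (voom), other factors and filters, a replicate block and fewer libraries. Gene positions and promoter sequences come from RefSeq tables of GRCm38.p6.

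The genes, their classes and the further lists were chosen with earlier results of these data known. Values per library are given for a named set of genes (cyclins, CDKs, Wee1, kinases, Mad2l1 and separation genes) and for further genes past the threshold without overlap. Those of Cenpf, whose groups overlap, were added after its values were seen. In addition up to 4 genes of smallest p without overlap are named from each further list. The labels call the pools biological replicates, but nothing says that pools came from separate litters or days, so p-values measure the spread between these pools. No pair of replicates agreed within sampling noise (chi-square per degree of freedom of 57.8 to 199 for A485 pairs and 18.8 to 33.1 for control pairs), so A485 libraries varied more, while the fit gives both groups 1 dispersion trend. The code was tested on simulated data that had the spread of the control libraries in both groups. There edgeR recovered 45.3% of 1.5-fold and 70.3% of 2-fold changes, so a gene that did not pass may still differ. Of the calls, 2.9% were false in edgeR and 13.9% in DESeq2. That simulation changed only 200 genes, while 54.7% of the genes tested were called in the data. Its rates may therefore not carry over.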

Additional observations from a re-analysis of the deposited data

Results flagged for a closer look

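In 4 of 88 sets of 4 libraries (44 genes in 2 groups) 1 library stood apart from the other 3 by more than Dixon's 95% critical value, and chance gives about 1 in 20. Cdc25c had 28.6 CPM in A485 replicate 4, above the 20.9 to 21.8 CPM of the other A485 libraries. Incenp had 34.4 CPM in A485 replicate 4, above 26.2 to 27.5 CPM in the others. Bub1 had 24.3 CPM in A485 replicate 1, below 33.4 to 34.2 CPM in the others, and that library is the one nearest to the control libraries at 21.9 to 22.9 CPM. Cenpf had 49.9 CPM in control replicate 2, above 35.6 to 37.1 CPM in the other control libraries and level with A485 replicate 3.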

How the results depend on the processing

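Of the 15 genes called, 9 passed in every alternative that tested them and 6 (Ccnb1, Ccnd1, Cdk4, Bub1, Nuf2 and Prc1) lost the call in at least 1, with none reversed. Of the 29 not called, 17 passed in at least 1 of the 19 alternatives. Leaving out 1 library gave 6479 to 7685 genes called in all (7077 with all libraries), 3509 to 4165 higher and 2784 to 3520 lower, and among the 44 genes 6 to 12 higher and 3 to 8 lower. By class the ranges were 3 to 5 higher and 2 to 4 lower (cyclins and CDK control), 0 to 1 and 1 to 3 (kinases), 2 to 3 and 0 to 1 (kinetochore), 1 to 3 and 0 to 2 (spindle). In the further lists they were 8 to 11 and 1 to 2 (CDK inhibitors, RB and E2F), 12 to 14 and 6 to 10 (mitotic regulators), 9 to 13 and 4 to 7 (centromere), 6 to 9 and 3 to 5 (cohesin and condensin), and 10 to 16 and 4 to 6 (spindle, centrosome and cytokinesis).

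Total-count scaling gave 21 of the 44 higher and 3 lower, with 4 kinases and 6 spindle genes higher, 5 mitotic regulators lower, 13 cohesin and condensin genes higher and 1 lower, and 2 genes of the spindle, centrosome and cytokinesis list lower. Over all genes it gave 4930 higher and 2300 lower. The 5 CPM filter gave 2526 genes higher in all, 2 of the 44 lower, 1 cyclin or CDK gene lower and 2 kinases higher. With no filter 3 cyclin and CDK genes were higher, and 1 spindle gene was higher and 1 lower. RLE factors, DESeq2 and limma-voom each called 1 spindle gene lower, and DESeq2 and limma-voom each 7 centromere genes lower. Without A485 replicates 1 and 2, 5 spindle genes were higher and 1 lower, 1 kinetochore gene lower and 8 centromere genes lower. Without A485 replicates 3 and 4, 7 of the 44 were higher, 0 kinases higher, 1 spindle gene higher and 1 lower, 3 of the CDK inhibitor, RB and E2F list lower, 7 centromere genes higher, and 5 cohesin and condensin genes higher and 2 lower. The stricter filter also leaves fewer genes to test. The cause of these moves was not tested.

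Same-numbered libraries deviated together with correlations of 0.0051, 0.014, 0.10 and 0.067, so numbers are not taken as pairs. With a replicate block 6671 genes were called, 9 of the 44 were higher and 4 lower, and 1 spindle gene was higher. Sign reversals concerned 14 genes, none of them called in either setting. Under total-count scaling log2 fold changes were 0.092 for Ccnd3, 0.080 for Cdk2, 0.21 for Cdc25a, 0.17 for Plk1, 0.19 for Bub1b, 0.23 for Bub3, 0.29 for Ndc80 and 0.057 for Tpx2. With upper-quartile factors they were 0.016 for Cdc25a, 0.0059 for Bub1b, 0.038 for Bub3 and 0.089 for Ndc80, and with the 5 CPM filter 0.047 for Cdc25a, 0.0039 for Plk1, 0.036 for Bub1b, 0.069 for Bub3 and 0.12 for Ndc80. Cdc25c had -0.010 with RLE factors, -0.049 without a filter and -0.010 in DESeq2. Without A485 replicates 1 and 2 Cdc25a had 0.15, Bub3 0.090 and Ndc80 0.025, and without A485 replicates 3 and 4 Cdc25c had -0.093, Ttk -0.12, Mad2l1 -0.030, Cenpe -0.066, Kif20a -0.12 and Pttg1 -0.025. Leaving out 1 library gave log2 fold changes from -0.28 to 0.012 for Cdc25a, -0.11 to 0.056 for Cdc25c, -0.20 to 0.040 for Bub3, -0.077 to 0.060 for Ndc80 and -0.016 to 0.44 for Cenpe.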

Other observations

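Of the 44 genes, 14 had in the authors' deposited table a q-value under 0.05, against 43.9% of 18219 genes with a value, and 13 of the 14 passed here in the same direction. Kif23 passed there with a q-value of 0.045, while Ccnb1 and Prc1, which passed in edgeR, had q-values of 0.060 and 0.053 in the authors' deposited table.

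Mki67, encoding a protein that coats mitotic chromosomes and is used as a marker of cycling cells, was higher in A485 by 1.28 on the log2 scale ± 0.27 (SE; adjusted p = 0.0029, edgeR), with 19.5, 27.4, 21.3 and 44.3 CPM in A485 libraries, against 9.12, 14.0, 10.1 and 13.3 CPM in control libraries. Fbxo5, encoding the anaphase-promoting complex inhibitor EMI1, fell with a log2 fold change of -0.79 ± 0.18 (SE; adjusted p = 0.0041, edgeR), and Zwint, encoding a kinetochore protein, rose with 1.23 ± 0.23 (SE; adjusted p = 0.0012, edgeR). These genes were chosen after their values were seen, and Mki67 again had its highest value in A485 replicate 4.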
